A study of Rattus norvegicus with 12 samples.

Results

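Stimulated rats of the 6-OHDA model were compared with untreated control rats to see which messenger RNAs of the motor cortex differed from control after 2 weeks of cortical stimulation. The 6 libraries used were chosen by their labels alone, 3 from rats labelled as stimulated PD (Parkinson's disease model) and 3 from rats labelled as control, out of 12 in the series. The other 6 libraries, from 3 unstimulated PD rats and 3 stimulated control rats, formed a separate pair of groups, and were also set beside the 6 compared in comparisons that share libraries with them. PD stands for the model made with 6-OHDA (6-hydroxydopamine). Stimulation at 130 Hz lasted 1 hour each day and was given wirelessly, through a graphene electrode array at the primary motor cortex. The design text names 3 groups and the labels give 4. Strain, age, sex, hemisphere, the side and extent of the lesion, and whether control rats carried an array without current were not stated in the labels or the design text. Each library is 1 rat, numbered in its title. The lesion and the stimulation differ together between these groups, so their parts in a difference cannot be told apart.

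6-OHDA is taken up by catecholamine neurons through their transporters and destroys them by oxidation, so that an injection into the nigrostriatal pathway removes the dopamine input of the striatum. The motor cortex receives a sparser dopamine input of its own and is driven indirectly through the basal ganglia and the thalamus. High-frequency stimulation of the basal ganglia relieves motor signs in Parkinson's disease, and stimulation of the motor cortex is a less invasive route to the same circuit. The table used here names its features by Ensembl identifiers only, and 0 of 16534 were paired with a gene symbol, so no gene function, cell type or tissue marker could be examined, and the label of motor cortex was not checked against markers. In bulk tissue, fewer cells of a type and less RNA per cell cannot be told apart.

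The 6 libraries held 42905441 to 55682422 counted reads each. Pairs of control rats correlated with Pearson's r of 0.989 to 0.992 over the 14963 features tested, on the log2(CPM + 0.5) scale (CPM, reads of a feature scaled to a fixed library total of counted reads), and pairs of stimulated PD rats with 0.976 to 0.988. Pairs made of 1 rat from each group gave 0.972 to 0.986, so the groups differed little more from each other than stimulated PD rats differed among themselves. The median SD of a feature within a group was 0.14 in stimulated PD and 0.13 in control rats on the log2 scale. It was 0.28 in PD rats. One of these unstimulated rats, PD rat 1, lay with the stimulated PD rats on the features described here, so the counts, shares and fold changes of the PD rats as a group are also given without it.

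In stimulated PD rats 1783 features fell below control and 1078 rose above it at an adjusted p under 0.05 (limma on log2(CPM + 0.5), fitted on these 6 libraries alone, Benjamini-Hochberg over all features tested). The calls made up 19.1% of the features, 11.9% lower and 7.2% higher. Most of the differences were small. On the log2 scale the median difference was -0.47 for lower features (1.39-fold) and 0.41 for higher features (1.33-fold), beside -0.09 for all features tested. Of the lower features 71.0% differed by less than 1.5-fold, as did 86.6% of the higher ones. Only 64 lower and 9 higher features passed both the test and a 2-fold difference. The limit of 2-fold was exceeded by 134 features in all, 0.896% of those tested, and 73 of them were called. The lowest adjusted p of any feature was 0.00808. The libraries of both groups did not overlap for 41.4% of features, 25.9% lower and 15.5% higher in stimulated PD rats. Every one of the 2861 called features was among these, and 3330 further features did not overlap but were not called.

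**Figure D1:**
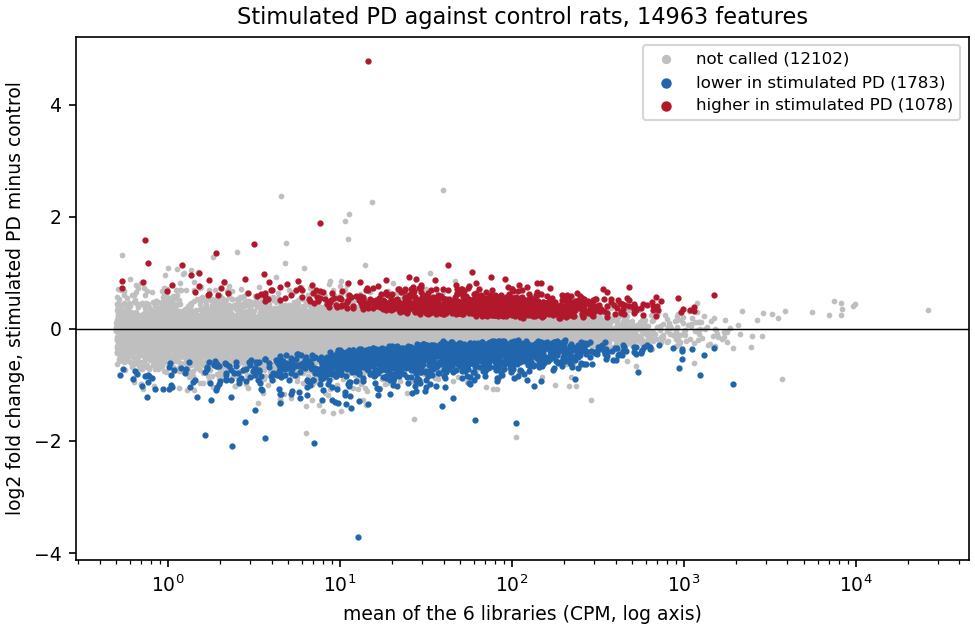
Each point is 1 of 14963 features, placed by its mean over the 6 libraries in CPM (log axis) and by its log2 fold change, stimulated PD minus control. Called features form a band on both sides of 0, mostly within 2-fold, and the highest and lowest points stand at log2 values of 4.79 and -3.71.

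The calls were not spread evenly over expression levels. Among 3221 features with a mean between 0.5 and 5 CPM, 3.91% fell and 1.15% rose. Between 5 and 50 CPM 12.7% of 7312 features fell and 5.36% rose. Between 50 and 500 CPM 16.9% of 4193 fell and 14.8% rose. Above 500 CPM 9.70% of 237 features fell and 12.7% rose. These splits changed with the scaling: with TMM factors 9.37% fell and 21.0% rose between 50 and 500 CPM, and 1.69% fell and 13.9% rose above 500 CPM. The precision differed between these classes: the median standard error of a log2 fold change was 0.22 in the lowest class, 0.12 in the next and 0.08 and 0.09 in the upper ones. The smallest log2 difference called was 0.46 below 5 CPM and 0.19 between 50 and 500 CPM, so a difference between these sizes was not detectable in weakly expressed features.

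Few features of the table were close to switched off. In 3 features each stimulated PD rat was under 0.5 CPM and each control rat over 1 CPM, and all 3 were called. The reverse pattern was found in 0 features. Since the table holds no value of 0, a gene without reads in even 1 library would not be seen in it. Neither count therefore covers genes fully silent in a group.

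The features named here are those with the largest fold change in each direction among the 2854 called features without overlap whose higher group averaged 1 CPM or more. ENSRNOG00000069829 was lower in every stimulated PD rat. It stood at 3.64, 4.17 and 4.49 CPM in control rats 1 to 3 and at 0.502, 0.530 and 0.710 CPM in stimulated PD rats 1 to 3. The log2 fold change was -2.09 with a standard error of 0.17 (limma adjusted p = 0.00808). Both groups were tight and far apart, and the levels of unstimulated PD rats, at 0.615, 0.944 and 0.532 CPM, reached down to those of stimulated PD rats. In stimulated control rats it stood at 4.21, 4.49 and 3.27 CPM and overlapped control rats.

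ENSRNOG00000070065 had the largest fall but an uneven one. Control rats stood at 23.6, 20.1 and 24.0 CPM. Stimulated PD rats 1 and 2 stood at 0.305 and 0.360 CPM, whereas stimulated PD rat 3 kept 7.42 CPM. The log2 fold change was -3.71 with a standard error of 0.81 (limma adjusted p = 0.0245). The unstimulated PD rats were just as uneven, at 7.38, 18.4 and 0.612 CPM, and their difference from control was -2.07 with a standard error of 0.85 (limma adjusted p = 0.228 in its own fit, and -2.33 with an adjusted p of 0.210 without PD rat 1). Stimulated control rats, at 18.7, 24.2 and 19.6 CPM, lay at the control level. The call was lost by edgeR (adjusted p = 0.101) and DESeq2 (adjusted p = 0.0863), and by limma without stimulated PD rat 1 or 2 (adjusted p = 0.0785 and 0.0501) without control rat 1, 2 or 3 (adjusted p = 0.0782, 0.0657 and 0.0719) and with all 12 libraries fitted (adjusted p = 0.105).

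ENSRNOG00000012067 rose the most. Control rats stood at 0.466, 0.611 and 0.341 CPM, which is 18 to 34 reads. Stimulated PD rats 1 to 3 stood at 14.6, 27.6 and 44.0 CPM. The log2 fold change was 4.79 with a standard error of 0.37 (limma adjusted p = 0.00808). Every stimulated PD rat was thus far above every control rat. The PD rats, at 23.3, 19.7 and 6.93 CPM, overlapped the stimulated PD rats (difference of stimulated PD from PD 0.80, standard error 0.51, limma adjusted p = 0.562, and 1.12 with an adjusted p of 0.227 without PD rat 1). Stimulated control rats stood at 0.409, 0.688 and 1.24 CPM.

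ENSRNOG00000017286 was higher in stimulated PD rats, at 10.3, 14.3 and 10.3 CPM. Control rats 2 and 3 stood at 1.63 and 1.46 CPM, but control rat 1 reached 7.71 CPM. The log2 fold change was 1.88 with a standard error of 0.52 (limma adjusted p = 0.0452), close to the threshold. PD rats stood at 9.46, 22.0 and 13.2 CPM and stimulated control rats at 1.33, 1.62 and 1.94 CPM. The call was lost by edgeR (adjusted p = 0.0801), and by limma without control rat 2 or 3 (adjusted p = 0.129 and 0.122) and without stimulated PD rat 1, 2 or 3 (adjusted p = 0.108, 0.0899 and 0.0712). It was also lost by limma without a variance trend (adjusted p = 0.0688), with a robust prior variance (adjusted p = 0.0624) and with all 12 libraries fitted (adjusted p = 0.104).

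**Figure D2:**
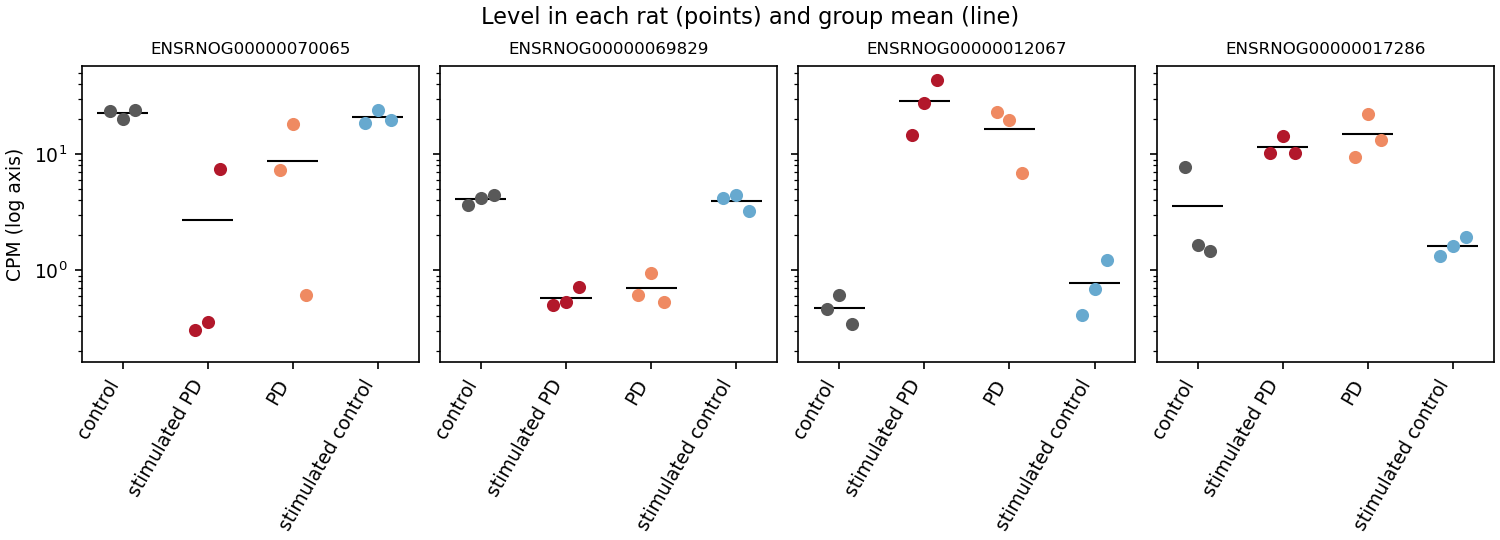
Level of the 4 named features in each of 12 rats, in CPM on a log axis, with 1 point per rat and a line at the group mean. For ENSRNOG00000069829 and ENSRNOG00000012067 the 3 stimulated PD and the 3 PD rats lie together, apart from all control and stimulated control rats; for ENSRNOG00000070065 both PD groups spread over more than 10-fold.

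For these 4 features the comparison of PD with stimulated control rats, which shares no library with the comparison above, gave log2 differences of -1.91 for ENSRNOG00000069829 (limma adjusted p = 0.00515), 3.63 for ENSRNOG00000012067 (limma adjusted p = 0.00524) and 2.78 for ENSRNOG00000017286 (limma adjusted p = 0.00385). For ENSRNOG00000070065 it gave -1.95 (limma adjusted p = 0.198). Thus 3 of the 4, which had been named for the largest fold changes, passed again in separate rats. Of all features 7.75% were called lower and 0.234% higher there, and 4.51% in either direction without PD rat 1. The same 3 passed without PD rat 1, where ENSRNOG00000069829 stood at -1.87 (limma adjusted p = 0.0148), ENSRNOG00000012067 at 3.31 (limma adjusted p = 0.0147) and ENSRNOG00000017286 at 3.05 (limma adjusted p = 0.00549). ENSRNOG00000070065 stood at -2.21 (limma adjusted p = 0.191).

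Which direction held the majority of calls depended on the scaling between libraries. As deposited, 62.3% of the calls were lower. With TMM factors 39.7% of 2768 calls were lower, with median-of-ratios factors 42.6% of 2712, and after quantile normalization 44.1% of 2783. When CPM were recomputed without the 10 most abundant features, 51.2% of 2773 calls were lower. The median over all features moved from -0.09 to -0.01 with TMM factors and to -0.05 without those 10 features. Of the 1078 higher features 1062 kept their call and direction under all 4 rescalings, and of the 1783 lower ones 946 did. All 4 raised the median over all features, which by itself keeps higher calls and removes lower ones. The calls kept therefore do not show which direction was the more stable. The number of higher calls grew, to 1668, 1558, 1555 and 1352 in the order given above. None of the calls turned into a call of the opposite direction under any of the 4. The 10 most abundant features were all higher in stimulated PD rats, by 0.25 to 0.49 on the log2 scale. All 10 were without overlap between the groups, beside 15.5% of all features that were higher without overlap. As deposited 0 of the 10 passed the test, beside 7.2% of all features called higher. After quantile normalization 1 of the 10 was called higher. These 10 features took 9.68% to 12.3% of reads in stimulated PD and 7.75% to 8.53% in control rats (difference of means 2.39 percentage points, exact permutation test, two-sided, p = 0.1, the smallest that 3 against 3 allows).

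Whether the same features differed between lesioned and unlesioned rats elsewhere was measured in PD against stimulated control rats, 6 libraries that took no part in the calls. In that pair limma called 7.99% of features, 7.75% lower and 0.234% higher in PD rats, and 4.51% without PD rat 1 (651 lower and 25 higher). Of the 1782 lower features tested there, 1360 (76.3%) had a negative difference, against 65.6% of all features tested in both pairs. Of the 1077 higher features 821 (76.2%) had a positive difference, against 34.4% of all. Shares of features called again were smaller. Of the lower features 131 (7.35%) were called lower, beside 7.82% of all features. Of the higher features 17 (1.58%) were called higher, against 0.236% of all, and these were 48.6% of the 35 features called higher in that pair. Other methods, applied to both pairs, gave other counts. DESeq2 called 276 lower features again (15.7%, beside 10.5% of all) and 258 higher ones (12.1%, beside 3.43%), and edgeR 47 (4.49%, beside 5.06%) and 31 (1.88%, beside 0.425%). With the rat number as a replicate block limma gave 308 (19.8%, beside 11.2%) and 32 (3.59%, beside 0.499%). Whether lower features were called again more often than all features thus depended on the method, while the share of higher features called again was above that of all features in each of these fits. The limma counts also moved with single rats. With the first calls made without stimulated PD rat 2 the lower features called again numbered 152 (13.3%, beside 7.82%). Without PD rat 1, 2 or 3 the lower features called again numbered 42, 70 and 81. These were 2.36%, 3.93% and 4.55%, beside 4.38%, 4.47% and 2.69% of all features. Without stimulated control rat 1, 2 or 3 they numbered 31, 149 and 16. These were 1.74%, 8.36% and 0.898%, beside 2.65%, 9.81% and 1.31% of all. With the first calls made without stimulated PD rat 1 or 3 they numbered 40 of 407 and 100 of 1378 (9.83% and 7.26%). With the first calls made without control rat 1, 2 or 3 they numbered 24 of 342, 47 of 824 and 70 of 591. These were 7.02%, 5.70% and 11.8%, all beside 7.82% of all features. The higher features called again numbered 6, 8 and 4 without PD rat 1, 2 or 3. These were 0.557%, 0.743% and 0.371%, beside 0.155%, 0.135% and 0.0675% of all features. Without stimulated control rat 1, 2 or 3 they numbered 4, 16 and 3. These were 0.371%, 1.49% and 0.279%, beside 0.101%, 0.263% and 0.0337%. With the first calls made without stimulated PD rat 1, 2 or 3 they numbered 8, 13 and 16 (3.57%, 2.55% and 1.65%). With those made without control rat 1, 2 or 3 they numbered 8, 11 and 11 (2.88%, 1.99% and 2.64%), all beside 0.236%.

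The larger a difference was, the more often it recurred in the separate pair. Among features lower by less than 1.5-fold, 71.3% were negative there and 2.84% were called lower, beside 65.6% and 7.82% of all features. Among those between 1.5-fold and 2-fold these shares were 87.6% and 16.2%. Of the 64 features lower by more than 2-fold, 61 were negative and 22 were called lower, with a median log2 difference of -0.94 against -1.16 in stimulated PD rats. Without PD rat 1 the features called lower again in these 3 classes numbered 7 of 1266, 21 of 452 and 14 of 64. Of all features 4.38% were called lower in that fit. The higher features followed the same order, with 74.9% positive under 1.5-fold, 84.4% between 1.5-fold and 2-fold, and 7 of 8 above 2-fold, of which 4 were called higher (3 without PD rat 1).

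These shares rested on PD rat 1 to a large extent. Without it 62.0% of the lower features were negative in the separate pair, against 64.7% of all features, and 51.7% of the higher features were positive, against 35.3% of all. Of the 64 features lower by more than 2-fold 58 were negative without this rat, as were 76.3% of those between 1.5-fold and 2-fold and 55.4% of those under 1.5-fold. The higher features dropped in both smaller classes, to 59.3% positive between 1.5-fold and 2-fold and to 50.3% under 1.5-fold, and 7 of 8 above 2-fold were positive.

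The single rats show this directly. Each PD rat was set against the mean of the 3 stimulated control rats on the features called between stimulated PD and control rats. In PD rat 1 97.3% of the lower features were below and 97.6% of the higher features were above that mean, with medians of -0.50 and 0.44 on the log2 scale. In PD rat 2 the medians were -0.19 and -0.05, beside -0.24 for all features, and 60.4% of lower features were below. In PD rat 3 the medians were -0.11 and 0.08, beside -0.09 for all features, and 64.8% of lower features were below. Taken as 1 list, the lower features of PD rats 2 and 3 thus followed all features, of which 64.6% and 62.6% were below. The larger differences did not. In the separate pair without PD rat 1, features lower by less than 1.5-fold had a median of -0.06, beside -0.17 for all. Those between 1.5-fold and 2-fold had -0.45, and those lower by more than 2-fold had -0.95. Of the higher features 45.3% were above in PD rat 2 and 68.1% in PD rat 3, beside 35.4% and 37.4% of all features. Stimulated control rats, each set against the mean of the 2 others, had medians between -0.07 and 0.13 for the lower and between -0.10 and 0.06 for the higher features.

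To place PD rat 1 beside stimulated PD rats that had not been used to choose the features, the calls were made again without 1 stimulated PD rat at a time, and that rat was measured against the stimulated control mean. Stimulated PD rat 1 stood at medians of -0.48 on 407 lower and 0.47 on 225 higher features, where PD rat 1 stood at -0.55 and 0.56. Stimulated PD rat 2 stood at -0.44 and 0.44 on its 1147 and 510 features, where PD rat 1 stood at -0.59 and 0.53. Stimulated PD rat 3 stood at -0.46 and 0.31 on its 1379 and 970 features, where PD rat 1 stood at -0.52 and 0.43. On these same 3 sets of features PD rats 2 and 3 ranged from -0.33 to -0.09 and from -0.10 to 0.15. PD rat 1, labelled as unstimulated, therefore carried the difference at a size no smaller than each stimulated PD rat held out in turn, and the 2 other PD rats carried a smaller one or none. The reason was not tested, and the labels give no library batch.

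**Figure D3:**
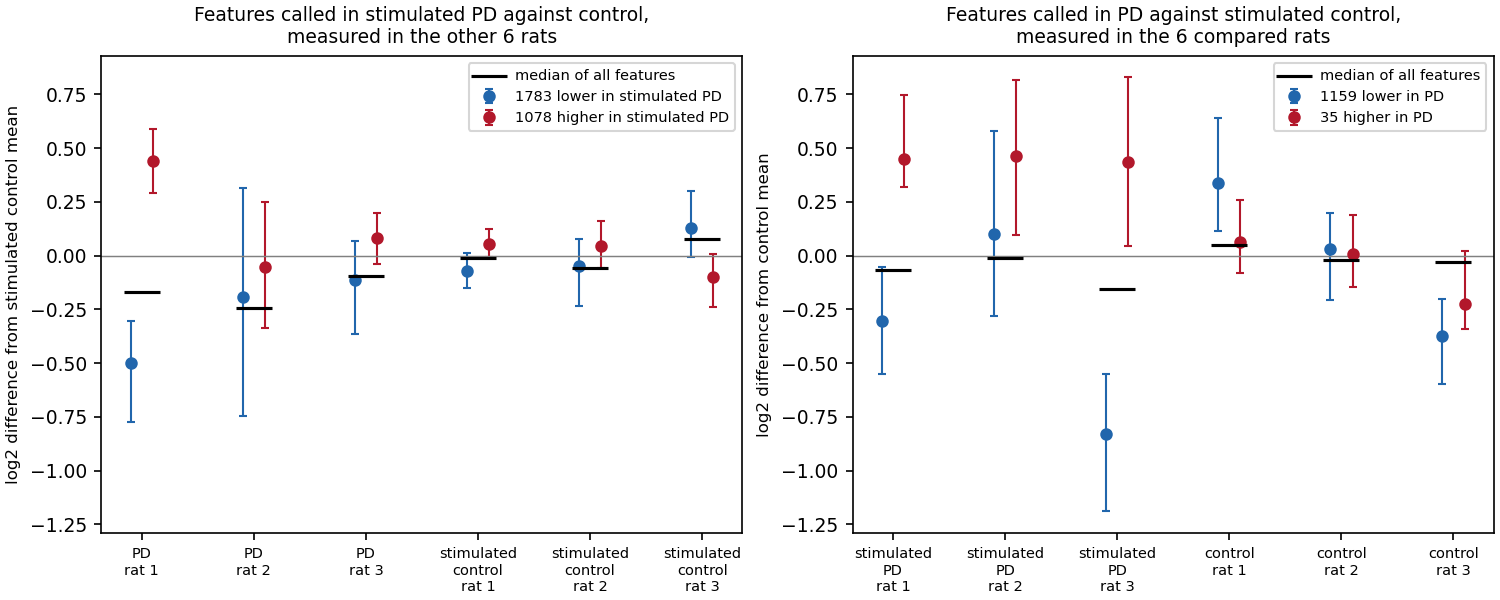
Points are medians and bars the interquartile ranges over features in each rat, as log2 differences; black lines are the medians of all features. The left panel shows features called between stimulated PD and control in the other 6 rats, against the stimulated control mean, with PD rat 1 alone far from 0 in both directions; the right panel shows features called between PD and stimulated control in the 6 compared rats, against the mean of the control rats (of the other control rats for a control), where the lower features of stimulated PD rat 3 have the lowest median.

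The reverse question is whether the features called between PD and stimulated control rats were at control level in stimulated PD rats, which took no part in that choice. On the 1159 features lower in PD rats, stimulated PD rat 3 stood at a median of -0.83 from the control mean, and 97.5% of them were below it. Stimulated PD rat 1 stood at -0.30, with 78.8% below. Stimulated PD rat 2 stood at 0.10, with 42.9% below, and so showed no shift of these features to the lower side. Of all features tested in both pairs, 57.6%, 51.2% and 66.9% were below the control mean in stimulated PD rats 1 to 3. The control rats differed among themselves on the 1159 features. From the mean of the other controls, control rat 3 stood at -0.37, with 91.0% below, and control rat 1 at 0.34, with 13.3% below. This set of lower features shrank from 1159 to 650, 662 and 399 without PD rat 1, 2 or 3. It shrank to 393 and 194 without stimulated control rat 1 or 3, and grew to 1454 without stimulated control rat 2. On these medians stimulated PD rat 3 was below every control rat, and stimulated PD rat 2 lay between control rats 1 and 3. A control set against only 2 others deviates more, in a fixed proportion, than it would against the mean of all 3. Against that mean, the median of control rat 3 would deviate less than that of stimulated PD rat 1. The share of these features below was nevertheless larger in control rat 3 (91.0%) than in stimulated PD rat 1 (78.8%). The median and the share thus place stimulated PD rat 1 differently beside the control rats. The 35 features higher in PD rats fell to 23, 20 and 10 without PD rat 1, 2 or 3. They fell to 15 and 5 without stimulated control rat 1 or 3, and rose to 39 without stimulated control rat 2. On the 35 features the 3 stimulated PD rats stood at 0.45, 0.46 and 0.44, above the controls at -0.22 to 0.07. The higher features were therefore away from control by similar medians in all 3 stimulated PD rats, while the lower ones were not.

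The levels of unstimulated rats can be set beside these on the features called between stimulated PD and control rats. These comparisons share control libraries. The features were also chosen in the stimulated PD libraries, which by itself favours a larger difference there than in PD rats. The order of the medians below therefore does not show which group was further from control. For the lower features the median log2 difference from control was -0.47 in stimulated PD, -0.28 in PD and -0.02 in stimulated control rats. For the higher features it was 0.41, 0.18 and 0.02 in the same order. Without PD rat 1 the lower features had a PD median of -0.16 and the higher ones of 0.04, beside -0.13 for all. The medians of all features tested were -0.09, -0.11 and 0.03. Between stimulated PD and PD rats 0 features (0.0%) were called by limma in a fit of their own 6 libraries, with 1281 (8.64%) at an unadjusted p under 0.05. Without PD rat 1 there were again 0 calls, with 4011 of 14819 features at an unadjusted p under 0.05. PD rat 1 was left out because it lay with the stimulated PD rats, which by itself favours a higher number. The lack of calls in either fit does not show that stimulated PD and PD rats were alike. Between stimulated control and control rats 0 (0.0%) were called as well, with 543 (3.61%) at an unadjusted p under 0.05. edgeR and DESeq2 were not run on these pairs.

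The number of features called in stimulated PD rats depended on which libraries were fitted. With all 12 libraries in the fit, 4 features were lower and 1 higher. That fit shares 1 estimate of the spread with the PD rats, whose median SD was the largest of the 4 groups. With 9 libraries, the PD rats left out, it was 1793 lower and 1092 higher. It was 632 in all without stimulated PD rat 1, 1657 without stimulated PD rat 2, and 621, 1377 and 1009 when control rat 1, 2 or 3 was left out. In all, 265 lower and 185 higher features were called with each rat left out in turn.

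**Figure D4:**
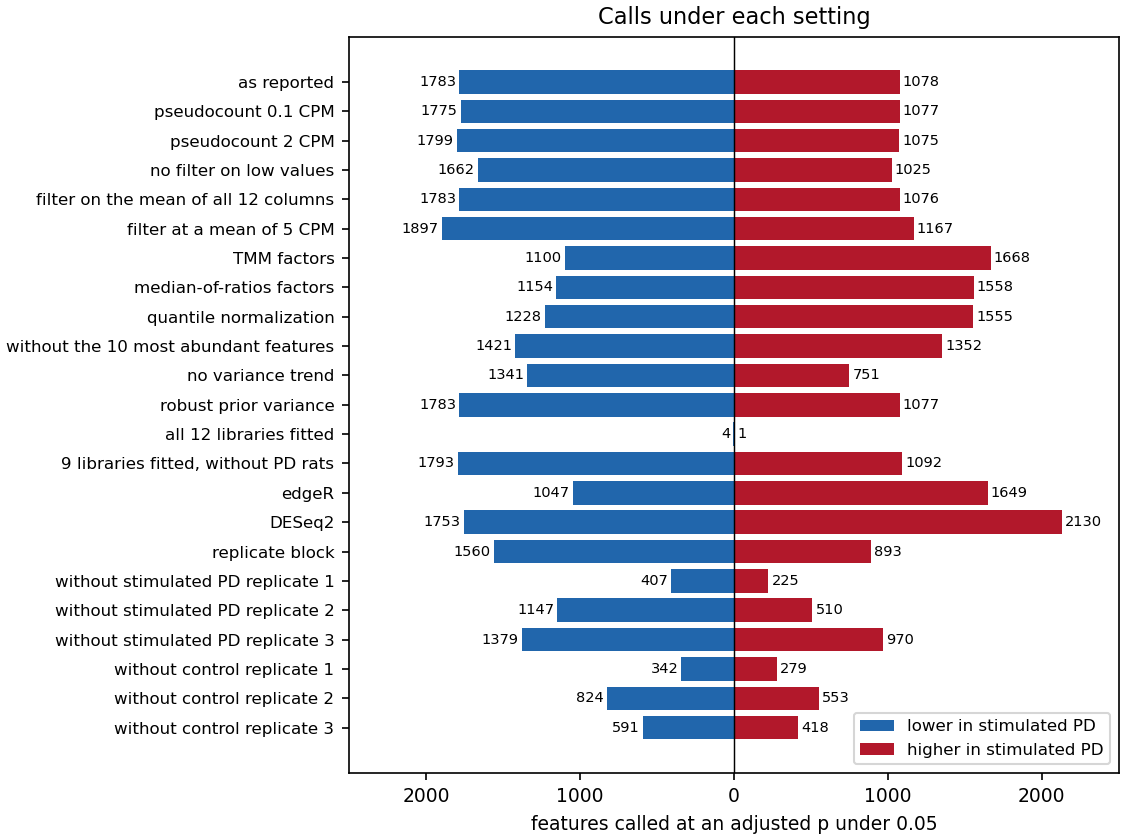
Number of features called lower (left) and higher (right) in stimulated PD than in control rats at an adjusted p under 0.05, for each setting. The count as reported, 1783 lower and 1078 higher, shrinks most with all 12 libraries fitted and when single rats are left out, and the majority changes side with TMM factors, median-of-ratios factors, quantile normalization, edgeR and DESeq2.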

How the data were processed

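Poly(A) RNA of each rat was sequenced from stranded libraries, per the labels' protocols. Per the submitters' processing notes, the tools were Trim Galore, STAR and featureCounts (no versions) and the build was mRatBN7.2. The annotation, strand setting and filter were not stated. The authors deposited CPM for 16534 features, and 0 of 12 columns were left without a sample. Every value was a whole multiple of 1 step per column (100% within 0.001 read), which gave the whole reads for edgeR (2696 calls) and DESeq2 (3883 calls); 0.0264% to 0.0542% of reads in the 6 libraries lay outside the table.

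Features averaging 0.5 CPM or more over the compared libraries were tested with limma 3.58.1 (R 4.3.3) on log2(CPM + 0.5) with a trended prior variance, two-sided, Benjamini-Hochberg adjusted. A fold change on this scale understates that of weakly expressed features. edgeR 4.0.16 and DESeq2 1.42.0 were alternatives, and scripts were tested on simulated data. Features were named by fold change, 2 per direction (adjusted p under 0.05, at least 1 CPM in the higher group, no overlap); the rule also asked for a gene symbol, which no feature had, and 42 gene lists were not analysed here for the same reason. Members, lists and tests were chosen with earlier results of these data known, and the comparison with PD and stimulated control rats, the measures for single rats the fits without PD rat 1 and the fit of 9 libraries were added after seeing the data.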

Additional observations from a re-analysis of the deposited data

How the results depend on the processing

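Pseudocounts of 0.1 and 2 CPM, other filters, a robust or untrended prior variance and the fit of 9 libraries kept the counts of features within 1.5 times of those reported. With TMM factors 1100 features were lower and 1668 higher, with median-of-ratios factors 1154 were lower, and edgeR gave 1047 lower and 1649 higher. DESeq2 gave 2130 higher, and the fit of all 12 libraries gave 5 features, 4 lower and 1 higher. Leaving out 1 rat at a time gave 621 to 2349 features, 342 to 1379 lower and 225 to 970 higher. The share of lower features negative in PD against stimulated control rats was 66.1% with TMM, 65.6% with median-of-ratios, 69.4% with quantile normalization, 62.9% by edgeR, 62.1% by DESeq2 and 78.6% without a variance trend, beside 47.9%, 47.7%, 42.9%, 46.3%, 46.0% and 65.6% of all features. The share of higher features positive there was 88.6%, 89.0%, 85.7%, 91.0%, 88.5% and 80.2% in the same order, beside 52.1%, 52.3%, 57.1%, 53.7%, 54.0% and 34.4% of all. Leaving out 1 rat at a time these shares ran from 62.0% to 90.2% and from 51.7% to 93.3%. The cause of these movements was not tested. With the rat number of the titles as a replicate block 2453 features were called, 1560 lower and 893 higher. Deviations of same-numbered rats correlated at 0.03, -0.05 and 0.36, and those of differently numbered rats at -0.37 to 0.36. What the number means was not stated, and so few values cannot settle whether it marks a pairing. ENSRNOG00000012067 and ENSRNOG00000069829 passed under all 22 and 21 alternatives that tested them, ENSRNOG00000070065 under 14 of 22 and ENSRNOG00000017286 under 13 of 22. The setting without mitochondrially encoded genes and all gene lists were not run, since identifiers could not be matched. Reads per library limit weakly expressed features, and 3 rats a group limit all of them.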
